A study of Danio rerio with 10 samples.

Results

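The HOX cluster genes of the zebrafish genome were followed through 3 histone H3 marks in the lateral rectus, the muscle that turns the eye outward, before and after part of it was cut away. Members were all genes listed beside a region of any mark whose symbol is hox, a cluster letter from a to d and a digit. This gave 49 genes of the 24860 genes named beside regions, and they were the same in number as the 49 protein-coding HOX symbols of the RefSeq zebrafish annotation, all of which were found. The 49 genes lie in 7 clusters and were named by 26 of 78452 regions, which were 11 of 18120 regions of H3K27me3, 12 of 18746 regions of H3K4me3 and 3 of 41586 regions of H3K27Ac.

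HOX genes encode homeodomain transcription factors that set position along the head-to-tail axis. Within a cluster the genes stand in a row, numbered by paralogue group, and low-numbered groups act further forward in the embryo than high-numbered ones. Polycomb complexes keep them silent where they are not needed and deposit H3K27me3, while Trithorax-type enzymes deposit H3K4me3 at gene starts and H3K27Ac marks active promoters and enhancers. The eye muscles form from head mesoderm that lies in front of most HOX expression. The microRNAs of the mir10 and mir196 families sit inside the clusters, and in mouse mir196 is known to target Hoxb8 mRNA.

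Chromatin immunoprecipitation sequencing (ChIP-seq) was done once for each mark in uninjured control muscle and at 9 and 18 h after injury (hpi), so the 9 libraries gave 1 library per mark and time. Each time point was a pool of tissue, from 119 fish for the control, 192 fish at 9 hpi and 200 fish at 18 hpi. All were adults of 4 to 18 months, described by the design text as wild-type and by the growth protocol as wild-type and transgenic for α-actin::EGFP, in which an actin promoter drives a green fluorescent protein; which fish entered which pool was not given. For the injury a stretch of 0.5 to 1.0 mm, about 50% of the muscle, was excised. The values are the submitters' average and maximum tag pileup over each region, that is, the number of overlapping sequenced fragments, on the danRer10 genome, and the number of tags behind each library is unknown. With 1 library per mark and time there is no replicate error, no test was possible, and every difference below is a difference between pooled libraries. A region was called higher or lower when (average pileup + 1) differed from the control by 2-fold or more, and changes are given as log2 of that ratio. In tissue pools, fewer cells of a type and less of a mark per cell cannot be told apart.

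All 49 HOX gene starts lay inside an H3K27me3 region, and all 49 also lay inside a region called separately in each of the 3 libraries. Of all genes named in the tables, 36.8% had their start in an H3K27me3 region. The active marks were sparse in the clusters. H3K4me3 covered the starts of 7 HOX genes, hoxb2a, hoxb4a, hoxb5a, hoxc4a, hoxc5a, hoxd10a and hoxd11a, or 14.3% of the HOX genes beside 63.7% of all genes. Single-library calls placed H3K4me3 over 5 HOX starts before injury, 3 at 9 hpi and 5 at 18 hpi. Among them hoxd10a was counted at 18 hpi alone. Its control and 9 hpi calls ended at position 1969200, just short of the start at 1969251. Shares of all genes were not counted per library, so these counts do not show a fall and return. H3K27Ac covered 1 start, that of hoxb4a, a gene of the hindbrain and anterior trunk, beside 61.5% of all gene starts, and this call was present at 9 and 18 hpi and not in control. The hoxb4a start was thus the only HOX start lying in regions of all 3 marks. Its H3K27Ac region had 11.5 tags in control, beside a control median of 11.8 over all H3K27Ac regions. A missing call was therefore not a missing signal. Long H3K27me3 regions elsewhere are a closer comparison than all genes, though not a matched one. Of the 11 H3K27me3 regions of the clusters, 45.5% overlapped H3K4me3, beside 59.8% of 899 others of 20 kb or longer. Per 100 kb this was 1.60 and 2.84 H3K4me3 regions. For H3K27Ac the shares were 27.3% and 72.1%, with 0.53 and 4.88 regions per 100 kb. The 899 others were shorter and much lower in H3K27me3, with medians of 25.4 kb and 10.4 control tags. The HOX regions had medians of 58.8 kb and 52.7 tags. Regions of like length and level were not compared.

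**Figure D1:**
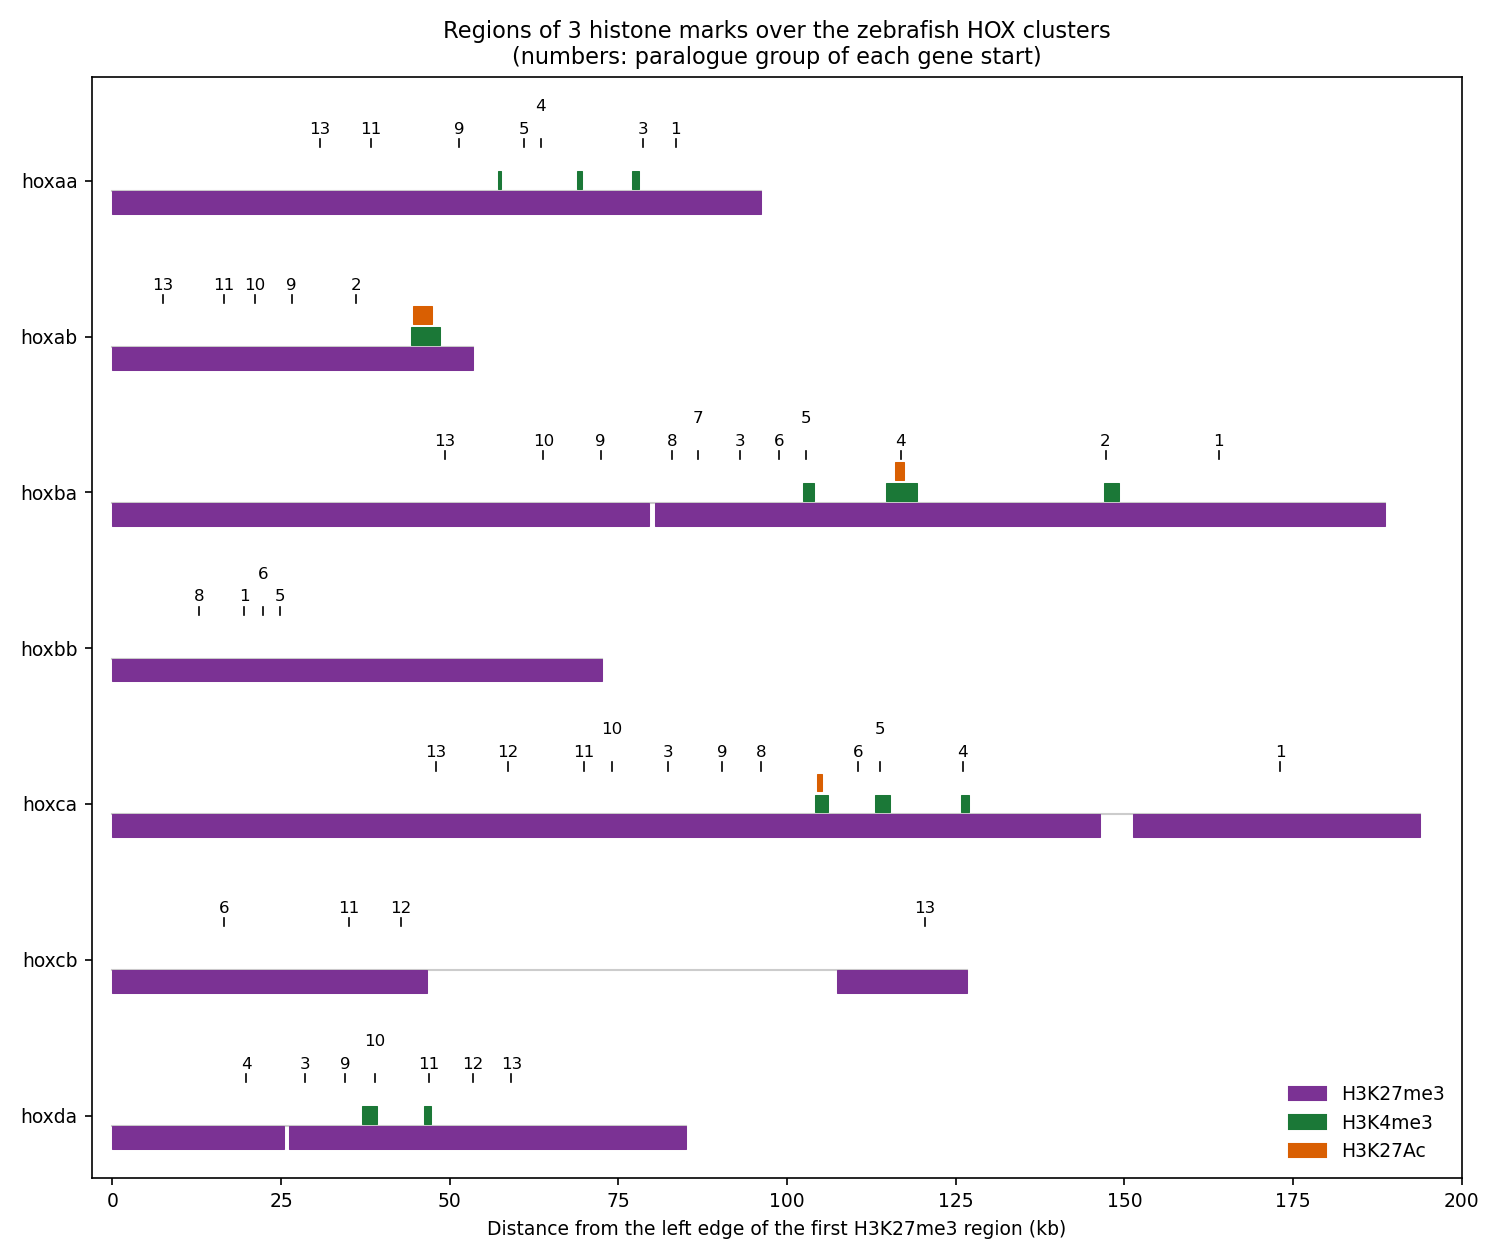
Regions of H3K27me3 (purple), H3K4me3 (green) and H3K27Ac (orange) in the 7 HOX clusters, drawn to scale in kb from the left edge of the first H3K27me3 region of each cluster; ticks and numbers mark the starts and paralogue groups of the 49 genes, and thin grey lines join domains of 1 cluster. Purple bars run under every gene start, green bars lie in 5 clusters and orange bars in 3.

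The H3K27me3 regions of the clusters were long and had high levels. Their median length was 58.8 kb (19.2 to 146.4 kb) beside 6.0 kb over all H3K27me3 regions. Together they spanned 749 kb, 0.526% of the length marked by H3K27me3. Among all 18120 regions, 5 of the 15 longest and 5 of the 15 with the highest mean pileup were HOX regions. Both properties met seldom elsewhere: of 909 regions of at least 20 kb, 69 had a control average pileup of 30 tags or more, and 9 of these 69 were HOX regions. Weighted by length, the average pileup over the HOX domains was 49.4 tags in control, 47.6 at 9 hpi and 46.7 at 18 hpi, beside 10.4, 10.3 and 10.2 over all H3K27me3 regions. The HOX level was lower by 3.76% at 9 hpi and 5.55% at 18 hpi, and that over all regions by 0.0993% and 1.65%.

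**Figure D2:**
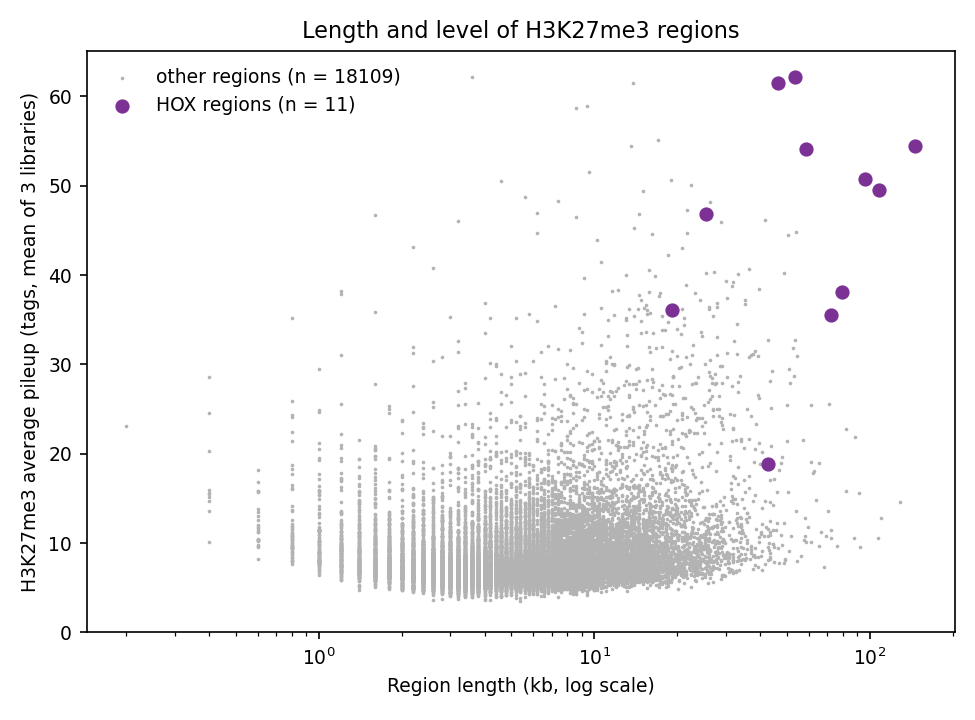
Length (log scale, kb) and average pileup (tags, mean of the 3 libraries) of each H3K27me3 region, with the 11 HOX regions in purple and the 18109 other regions in grey. The HOX regions lie toward the right and the top, except the hoxc1a region at 42.6 kb and 18.9 tags.

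The hoxaa cluster has 7 genes on chromosome 19 and lay in a single H3K27me3 domain of 96.2 kb (chr19:20125801-20222000), the 6th longest of all. It held hoxa13a, hoxa11a, hoxa9a, hoxa5a, hoxa4a, hoxa3a and hoxa1a, with mir196a-2 between the genes and evx1, an even-skipped type homeobox gene, at the hoxa13a end. Its average pileup was 52.9 tags in control, then 50.04 at 9 hpi and 49.2 at 18 hpi. The main body was called in every library, at 84.2 kb in control, 96 kb at 9 hpi and 85.4 kb at 18 hpi. The difference in length lay at the evx1 edge, where the control had a separate stretch of 8.8 kb at 6.71 tags and the 18 hpi library had stretches of 4.8 and 2.2 kb. The highest point lay within 239 bp of the hoxa13a start in control and 18 hpi and within 111 bp at 9 hpi. hoxa13a belongs to the group used at the tips of fins and limbs. No H3K27Ac region named a hoxaa gene, and its 3 H3K4me3 regions, all of 1 kb or less, covered none of the 7 starts. The nearest H3K4me3 and H3K27Ac regions beyond the domain lay 5.6 and 7 kb away on the lower-coordinate side, with no gene named, and 182.2 and 182 kb away at osbpl3a on the other.

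The hoxab cluster, with 5 genes on chromosome 16, had 1 H3K27me3 domain of 53.4 kb (chr16:21082601-21136000). Its average pileup was 63.1 tags in control, then 62.7 at 9 hpi and 60.5 at 18 hpi, the second highest of all regions. It held hoxa13b, hoxa11b, hoxa10b, hoxa9b and hoxa2b, a gene that patterns the second pharyngeal arch in zebrafish, with mir196d among them. The domain also reached over the start of skap2, an adaptor protein gene of blood cells, and that of LOC101886298. These starts lie close together on opposite strands, at 21128521 for skap2 and 21128391 for LOC101886298. The H3K4me3 and H3K27Ac regions described below at the skap2 start held both. hibadhb, which encodes a metabolic dehydrogenase, was named beside the other edge. The highest point lay within 359 bp of the hoxa11b start in all 3 libraries. At hibadhb, 15.2 kb outside, H3K4me3 stood at 56.6 tags in control, 59.3 at 9 hpi and 65.5 at 18 hpi. On the far side the nearest H3K4me3 region was at the start of snx10b, a sorting nexin gene, 95.6 kb away, at 3.50, 6.16 and 11.4 tags.

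The hoxba cluster, with 11 genes on chromosome 3, was covered by a pair of H3K27me3 domains parted by 800 bp. The first, of 79.6 kb (chr3:23474401-23554000), held hoxb13a, hoxb10a and hoxb9a with mir196b and eve1, the even-skipped gene of this cluster. The second, of 108.2 kb (chr3:23554801-23663000), held hoxb8a, hoxb7a, hoxb6a, hoxb5a, hoxb4a, hoxb2a and hoxb1a with mir10c, and also the annotated start of hoxb3a, which lies between those of hoxb7a and hoxb6a. The gap between hoxb9a and hoxb8a had the same borders in all 3 libraries. The first domain averaged 38.8 tags in control, then 38.1 at 9 hpi and 37.5 at 18 hpi. The second averaged 52.7, 48.1 and 47.7 tags, so both libraries after injury were below the control. Right beside the cluster stood an active promoter: the H3K4me3 region at atp5g1, which encodes a subunit of ATP synthase, ended 0.4 kb from the domain and had 59.1, 58.4 and 61.9 tags. The H3K27Ac region of atp5g1 ended 0.2 kb from it, at 24.3, 36.4 and 25.1 tags. ube2z, a ubiquitin-conjugating enzyme gene, was also named beside this edge. On the other side the next H3K4me3 region was that of cbx1a, 266.6 kb away.

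The hoxbb cluster has 4 genes on chromosome 12, hoxb8b, hoxb1b, hoxb6b and hoxb5b, with mir10a. A single H3K27me3 domain of 72.6 kb (chr12:27013401-27086000) covered them together with the starts of LOC100535964 and skap1, an adaptor gene of the same family as skap2; ttll6, which encodes a tubulin-modifying enzyme, was named beside it. Its average pileup was 38.8 tags in control, 33.8 at 9 hpi and 33.8 at 18 hpi. Both libraries after injury lay below the control, with log2 changes of −0.20 and −0.19. No H3K4me3 or H3K27Ac region named a hoxbb gene in any library. hoxb1b, an early retinoic acid target of the zebrafish hindbrain, therefore carried H3K27me3 alone, as did the other 3 genes. The nearest H3K4me3 regions were 37 kb away at fbrs and 32 kb away at nbr1.

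The hoxca cluster, 11 genes on chromosome 23, contained the longest H3K27me3 region of the whole table, 146.4 kb (chr23:35906201-36052600). It held hoxc13a, hoxc12a, hoxc11a, hoxc10a, hoxc9a, hoxc8a, hoxc6a, hoxc5a and hoxc4a, the annotated start of hoxc3a between hoxc10a and hoxc9a, and mir196a-1 and mir10b-2. Its average pileup was 55.3 tags in control, then 54.9 at 9 hpi and 53.3 at 18 hpi, and each library called it as a single stretch of 143 kb or more. The position of the highest point moved between libraries, 4109 bp from the hoxc11a start in control, 109 bp from it at 9 hpi and 353 bp from the hoxc5a start at 18 hpi. A gap of 4.8 kb parted this domain from a second one of 42.6 kb (chr23:36057401-36100000) around hoxc1a. That second domain had the lowest level of the 11, at 20.3 tags in control, 17.9 at 9 hpi and 18.4 at 18 hpi. It was called as 1 stretch of 42.2 kb in control but as 3 stretches covering 33.6 kb at 9 hpi and 3 covering 38.4 kb at 18 hpi. The stretch over the hoxc1a start remained in both, at 25.8 and 28.6 kb. calcoco1a, a coiled-coil coactivator gene, and LOC100535473 were the other genes named beside the cluster. The H3K4me3 region of calcoco1a ended 0.4 kb from the domain and had 36.2, 28.7 and 26.4 tags, and its H3K27Ac region reached 1 kb into the H3K27me3 domain, at 24.8, 23.7 and 16.6 tags.

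The hoxcb cluster, 4 genes on chromosome 11, had domains 60.8 kb apart. The first, of 46.6 kb (chr11:2090601-2137200), held hoxc6b, hoxc11b, hoxc12b and mir196c, and was named also with smug1, a DNA repair glycosylase gene, and rargb, a retinoic acid receptor gene. Its 61.6 tags in control, 62.8 at 9 hpi and 60.2 at 18 hpi made it the third highest region of all. The second, of 19.2 kb (chr11:2198001-2217200), lay around hoxc13b and had 35.9, 35.9 and 36.3 tags. Its highest point lay 431 bp from the hoxc13b start in control, 143 bp at 9 hpi and 239 bp at 18 hpi. As in hoxbb, no region of an active mark named a hoxcb gene. The neighbours outside were active: hnrnpa1a, which encodes an RNA-binding protein, had H3K4me3 at 75.1, 81.3 and 60.3 tags 7.6 kb beyond the hoxc13b domain, and smug1 had 17.8, 21.1 and 21.3 tags 4.8 kb beyond the other. LOC100534851 was the remaining gene named beside the hoxc13b domain.

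The hoxda cluster, 7 genes on chromosome 9, was again split by a gap of 800 bp with the same borders in the 3 libraries. The smaller domain, 25.4 kb (chr9:1930401-1955800), held the starts of hoxd4a and mir10b-1. The larger, 58.8 kb (chr9:1956601-2015400), held hoxd3a, hoxd9a, hoxd10a, hoxd11a, hoxd12a, hoxd13a and evx2. The 2 domains differed in level after injury. The hoxd4a domain had 51.6 tags in control, 44.5 at 9 hpi and 44.4 at 18 hpi, with log2 changes of −0.21 and −0.21, the most negative of the 11 HOX domains at both times. The larger domain had 53.1, 54.9 and 54.1 tags, with log2 changes of 0.05 and 0.03, and was 1 of the 2 domains above the control at 9 hpi. The next active region was at lnpa, which encodes an endoplasmic reticulum protein, 4 kb outside, with H3K4me3 at 53.7, 50.1 and 62.6 tags and H3K27Ac at 46.4, 59.3 and 36.3 tags. On the hoxd4a side no H3K4me3 region occurred for 215.4 kb.

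Across the clusters, the nearest H3K27me3 regions beyond the domains lay 0.6 to 184.6 kb away. The 7 of them within 10 kb had 5.54 to 9.82 tags in control, below every HOX domain. By nearest gene and distance these neighbours were jazf1a (184.6 kb) and a place with no gene (43.6 kb) beside hoxaa, jazf1b (150.6 kb) and skap2 (21 kb) beside hoxab, ttll6 (0.8 kb) and skap1 (1.4 kb) beside hoxbb, and calcoco1a (24.6 kb) and LOC100535473 (0.6 kb) beside hoxca. Beside hoxcb they were smug1 (8.4 kb) and znf740a (56.8 kb), beside hoxda a place with no gene (4.8 kb) and lnpa (0.6 kb), and beside hoxba a place with no gene (3.4 kb) and igf2bp1 (20.6 kb). The igf2bp1 region, 33 kb long, was the one with a level near those of the HOX domains, at 33.8, 35.2 and 34.5 tags. Nearest H3K4me3 regions within 10 kb were found beside 5 of the 7 clusters and had 13.1 to 75.1 tags in control, while the 12 HOX regions of this mark had 4.36 to 20.9. Of the 14 nearest regions per mark, H3K27Ac was called higher at 2 and lower at 1 at 9 hpi, beside 13% and 14.4% of all regions. At 18 hpi 0 were higher and 2 lower in H3K27Ac (7.9% and 18.2%), and H3K4me3 was higher at 1, snx10b (4.8%). At 9 hpi the calls were snx10b (4.22, 12.4 and 7.57 tags) and the region 47 kb from hoxca named with LOC100535473 (2.46, 12.6 and 2.93) on the higher side, and a region 34.8 kb from hoxda with no gene (10.9, 3.25 and 2.82) on the lower. The other nearest H3K27Ac regions beyond those given above lay at hibadhb (3.4 kb from hoxab), cbx1a (266.8 kb from hoxba), fbrs and nbr1 (36 and 34.6 kb from hoxbb), calcoco1a (33.8 kb from hoxca) and smug1 and hnrnpa1a (6.6 and 8.8 kb from hoxcb), and the last H3K4me3 region at LOC100535473 (38.2 kb from hoxca).

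No HOX domain changed 2-fold in H3K27me3. At 9 hpi 0 of 11 were called higher or lower, where 0.811% of all H3K27me3 regions were called higher and 0.171% lower. At 18 hpi it was again 0 of 11, beside 0.999% and 0.304%. The HOX domains had a median log2 change of −0.025 at 9 hpi and −0.060 at 18 hpi, against −0.025 and −0.041 over all regions. At both times 9 of the 11 domains were below the control, beside 53.7% of all regions at 9 hpi and 55.4% at 18 hpi. The maximum pileup went the other way: it exceeded the control in 10 of 11 domains at 9 hpi and in 8 of 11 at 18 hpi, beside 56.9% and 52.8% of all regions. In hoxcb, for example, the maximum of the first domain was 140 tags in control, 181 at 9 hpi and 139 at 18 hpi while its average hardly moved. The exception at 9 hpi was the second hoxba domain, at 172, 160 and 172. Among the 33 called stretches of at least 15 kb, the highest point was within 1000 bp of a HOX start in 4 of 11 in control, 8 of 11 at 9 hpi and 7 of 11 at 18 hpi. Each highest point is a single place in 1 library of unknown depth. The same share was not counted for other long H3K27me3 stretches, so these counts do not show a move toward gene starts.

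**Figure D3:**
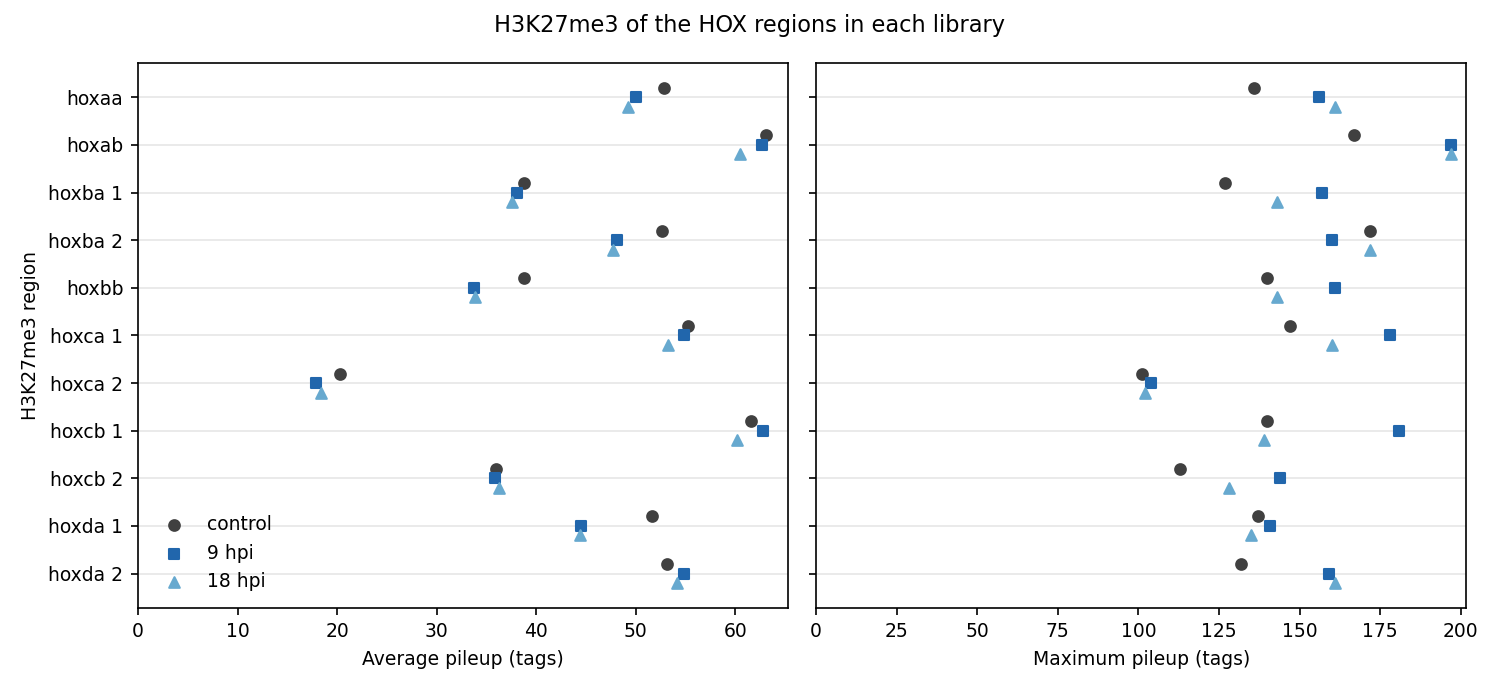
Average (left) and maximum (right) H3K27me3 pileup in tags for the 11 HOX domains, with 1 point per library: control (circles), 9 hpi (squares) and 18 hpi (triangles). The 3 averages of a domain lie close together, farthest apart in the first hoxda domain (51.6, 44.5 and 44.4 tags), and the maximum at 9 hpi lies right of the control in 10 of 11 domains.

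H3K4me3 in the clusters was weak and changed from library to library. The 12 regions were 0.4 to 4.6 kb long with a median of 1.7 kb, and by mean pileup they lay between percentiles 3.05 and 49.1 of all H3K4me3 regions. Of the 12, 7 were called in a single library, beside 9.95% of all regions. All 12 lay within H3K27me3 domains of the clusters, where 42.5% of all H3K4me3 regions overlapped H3K27me3 by at least 1 bp. These domains hold every HOX start, so the overlap follows largely from the position of the 12 regions in the clusters. Overlap with H3K27Ac was found for 3 of 12, beside 88.2% of all. By nearest start they belonged to paralogue groups 2 to 6, 10 and 11, with 3 regions each at groups 4 and 5.

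The longest of these regions, with the highest mean over the 3 libraries, covered the start of hoxb4a and mir10c (chr3:23589001-23593600, 4.6 kb). Its average pileup was 20.9 tags before injury, 24.5 at 9 hpi and 24.98 at 18 hpi, with a maximum of 94, 113 and 93 tags. It was called in every library, with the highest point within 276 bp of the hoxb4a start. The region at the skap2 start in the hoxab domain (chr16:21126801-21131200, 4.4 kb), which the tables also assign to hoxa2b 10.2 kb away, had 19.3, 17.2 and 25.6 tags and was likewise called in all 3. At 18 hpi it exceeded the hoxb4a region in average and, at 123 tags, in maximum. It counted as a HOX region by this assignment only. Calls in every library were also made at hoxb5a, hoxc5a and hoxd10a, genes of the trunk. At hoxb5a (chr3:23576801-23578400) the level was 9.17 tags before injury, 10.8 at 9 hpi and 17.4 at 18 hpi. At hoxc5a (chr23:36019201-36021400) it was 8.02, 8.16 and 9.48, and at hoxd10a (chr9:1967401-1969600) 8.56, 10.7 and 12.8. In these 3 regions the average pileup rose in the order control, 9 hpi, 18 hpi, and none reached 2-fold. The maximum did not follow this order and was lowest at 9 hpi in each. It was 26, 23 and 41 tags at hoxb5a, 32, 23 and 32 at hoxc5a, and 25, 24 and 36 at hoxd10a.

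The remaining 7 H3K4me3 regions were each called in 1 library. Control-only calls lay at hoxc4a, hoxa3a and hoxb2a. The hoxc4a region (chr23:36032001-36033200) covered the hoxc4a start, with the mir10b-2 start just outside. Its pileup was 14.6 tags before injury, 6.81 at 9 hpi and 5.24 at 18 hpi. At 1187 bp from the hoxa3a start (chr19:20202801-20203800) the pileup was 9.52, 4.32 and 3 tags. At the start of hoxb2a, which acts with hoxa2b in the second pharyngeal arch of zebrafish, it was 10.8, 8.58 and 7.03 (chr3:23621401-23623600). These 3 regions entered the table through their control call, so their control level was high by selection. Calls made at 18 hpi alone lay at hoxd11a, between hoxc8a and hoxc6a, and near hoxa5a. The hoxd11a start (chr9:1976601-1977600) had 5.39, 6.45 and 12.097 tags, and the place 5370 bp from the hoxc6a start (chr23:36010401-36012200) had 6.58, 8.20 and 14.9. The 0.4 kb region 3546 bp from hoxa5a (chr19:20183001-20183400) had 7.62, 8.92 and 16.0 tags. They in turn entered the table through the 18 hpi call. A last region, 5747 bp from the hoxa4a start (chr19:20194601-20195400), was called at 9 hpi alone and had 4.36, 10.3 and 8.64 tags.

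By the 2-fold rule, 1 of 12 H3K4me3 regions was higher at 9 hpi, the one near hoxa4a with a log2 change of 1.07, beside 3.28% of all H3K4me3 regions, and 0 of 12 were lower, beside 4.1%. The hoxc4a region, at −0.999, was just short of the limit. At 18 hpi 2 regions were higher, at hoxc6a (1.07) and hoxd11a (1.04), beside 4.8% of all regions. Another 2 were lower, at hoxa3a (−1.39) and hoxc4a (−1.32), beside 4.02%. The 12 regions had a median log2 change of 0.21 at 9 hpi and 0.46 at 18 hpi, against −0.051 and −0.023 over all regions. These medians include 7 regions admitted by a single library, and with maximum pileup they were −0.11 and 0.57. With a pseudocount of 5 in place of 1 no H3K4me3 region of the clusters was 2-fold higher or lower at either time. All 5 of these calls, and the hoxc4a value at 9 hpi, concern regions that a single library had placed in the table, the one where they were high, so the calls follow in part from how regions were admitted. The 5 regions called in every library, at hoxb4a, hoxb5a, hoxc5a, hoxd10a and the skap2 start, had log2 changes of −0.16 to 0.29 at 9 hpi and 0.22 to 0.85 at 18 hpi, and 0 of 5 reached 2-fold. Only 3 of the 12 had a mean pileup at or above the 25th percentile of all regions.

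H3K27Ac occurred at 3 places in the clusters, all inside H3K27me3 domains and all overlapping a HOX H3K4me3 region, where 24.8% of all H3K27Ac regions overlapped H3K27me3 and 40.6% overlapped H3K4me3. Here too the overlap with H3K27me3 follows largely from the position in the clusters. The first lay at the hoxb4a start (chr3:23590401-23591800, 1.4 kb), with the mir10c start just outside it. Its average pileup was 11.5 tags in control, 27.02 at 9 hpi and 14.9 at 18 hpi. Between hoxc8a and hoxc6a, 5670 bp from the hoxc6a start (chr23:36010601-36011400, 0.8 kb), it was 3.91, 17.4 and 8.80 tags, and only the 9 hpi library called it. At the skap2 start in hoxab (chr16:21127201-21130000, 2.8 kb), 79 bp from the middle of the region and 9829 bp from hoxa2b, it was 12.5, 26.9 and 13.2 tags and was called in all 3 libraries. At each of these places 9 hpi was the highest library and 18 hpi lay between it and the control.

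The hoxc6a region entered the table through its 9 hpi call alone and the hoxb4a region through calls at 9 and 18 hpi, while the skap2 region was called throughout. The log2 changes at 9 hpi were 1.16 at hoxb4a, 1.91 at hoxc6a and 1.05 at skap2, so 3 of 3 regions were called higher, beside 13% of all H3K27Ac regions. At 18 hpi they were 0.34, 0.997 and 0.08 and 0 of 3 were called, the hoxc6a region being just short, beside 7.9%. None was lower at either time, beside 14.4% at 9 hpi and 18.2% at 18 hpi. At hoxb4a and hoxc6a the higher calls follow in part from how regions were admitted, as neither was called in control. The skap2 region counted as a HOX region by its assignment to hoxa2b only. Over all H3K27Ac regions the median log2 change at 9 hpi was 0.11, and 45.5% lay below the control. The regions at or above the 25th percentile of signal had a median log2 change of 0.23, and of −0.16 at 18 hpi. With the medians of these stronger regions subtracted, the hoxc6a region alone stayed 2-fold higher at 9 hpi (1.68), with hoxb4a at 0.93 and skap2 at 0.82. The H3K4me3 region overlapping the hoxc6a H3K27Ac region was called at 18 hpi alone.

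**Figure D4:**
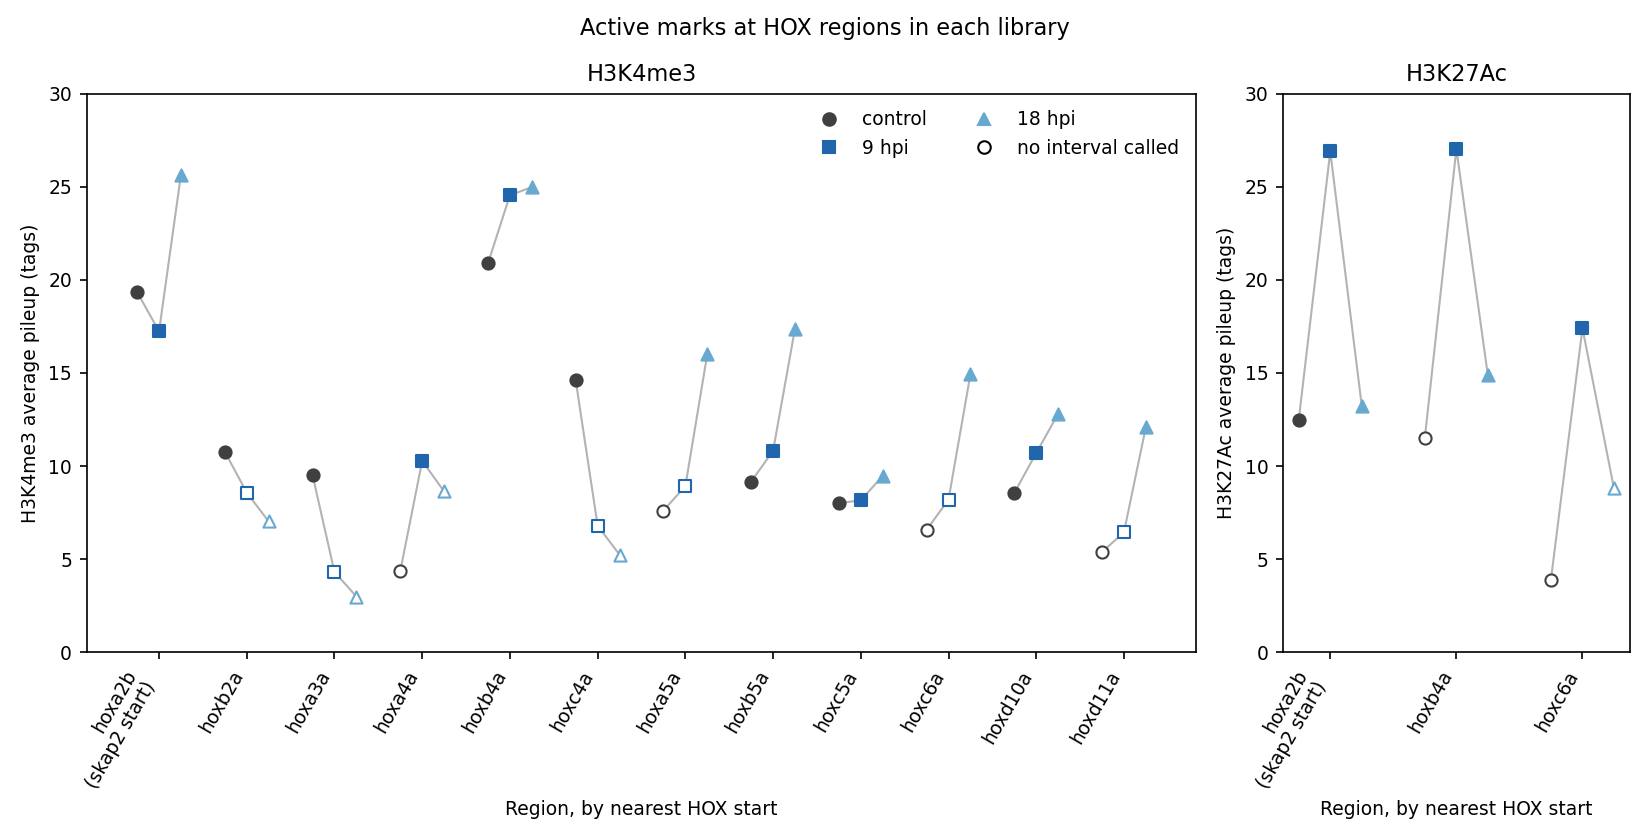
Average pileup in tags of H3K4me3 (left, 12 regions) and H3K27Ac (right, 3 regions) in the control, 9 hpi and 18 hpi libraries, with regions named by the nearest HOX start; open symbols mark libraries in which no region was called there. H3K27Ac is highest at 9 hpi in all 3 regions, of which the one at hoxc6a was called at 9 hpi alone, and the H3K4me3 regions with 1 filled symbol were called in that library alone.

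Markers of other cells moved over the same libraries. Muscle markers, at 12 of 20 genes with an H3K27Ac region near the start, summed to 224 tags before injury, 142 at 9 hpi and 91.6 at 18 hpi, and in H3K4me3 (12 of 20) to 171, 80.2 and 101. In H3K27Ac mylpfa was above the control at 9 hpi (18.7, 23.6 and 15.8 tags) and pvalb2 level with it (18.1, 18.1 and 10.3). The other muscle regions of this mark were below the control at 9 hpi. Leukocyte markers summed in H3K27Ac to 118, 210 and 131 tags (11 of 15 genes) and in H3K4me3 to 106, 170 and 213 (11 of 15), so their highest library was 9 hpi in H3K27Ac and 18 hpi in H3K4me3. In each mark 5 leukocyte regions were called higher at 9 hpi (13% of all regions in H3K27Ac, 3.28% in H3K4me3). Against the sums, cd74a and cd74b were below the control after injury in both marks, with H3K27Ac of 27.5, 16.3 and 9.13 tags at cd74a. For the other lists the H3K27Ac sums were 96.6, 51.97 and 31.9 for erythrocytes (7 of 9), 121, 70.95 and 75.1 for fibroblasts (7 of 10), 68.1, 89.2 and 59.97 for endothelium (6 of 8), 64.7, 26.8 and 26.99 for nerve and Schwann cells (4 of 8) and 19.6, 28.9 and 32.8 for retina and epidermis (2 of 7). In H3K4me3 they were 80.96, 95.9 and 53.2 for erythrocytes (8 of 9), 156, 114 and 133 for fibroblasts (8 of 10), 66.3, 85.3 and 94.6 for endothelium (7 of 8), 67.8, 53.6 and 72.3 for nerve and Schwann cells (6 of 8) and 40.95, 30.8 and 26.6 for retina and epidermis (3 of 7). The fibroblast H3K4me3 regions were split at 9 hpi, with 2 called higher and 2 lower (3.28% and 4.1% of all regions). Their H3K27Ac regions were split too, with 1 higher and 3 lower at both times. Over all regions these shares were 13% and 14.4% at 9 hpi and 7.9% and 18.2% at 18 hpi. No marker region was at 0 in any library, the lowest being 1.69 tags. The part of these cells in the H3K27Ac and H3K4me3 values of the HOX regions was not tested.

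The proteins that work with HOX factors were described from a region near their starts, up to 5000 bp away. Of the 14 cofactor genes of the PBX, MEIS and PKNOX families, which bind DNA together with HOX proteins, 7 had H3K27me3, 12 H3K4me3 and 11 H3K27Ac there. The only 2-fold call was lower H3K4me3 at meis2a at 18 hpi (4.02% of all regions were lower). Its average pileup was 23.6 tags in control, 16.8 at 9 hpi and 11.2 at 18 hpi. None of the 11 cofactor regions of H3K27Ac was called. Called shares for this mark at 9 hpi, counting every region, were 13% upward and 14.4% downward. The 18 hpi shares were 7.9% and 18.2%. For the other marks no such share exceeded 4.8%. The cofactor medians of log2 change at 9 and 18 hpi were 0.24 and 0.03 in H3K27me3 and −0.16 and −0.49 in H3K4me3. The H3K27Ac medians were 0.31 and −0.14. In H3K27me3 the log2 changes at 9 hpi were lowest at meis2a (−0.21) and meis1b (−0.19) and highest at pbx3a (0.50) and pknox2 (0.47). In H3K4me3 they were lowest at pbx1b (−0.50) and meis2a (−0.47) and highest at pbx3a (0.69) and pbx2 (0.26), and in H3K27Ac lowest at meis1b (−0.10) and pknox2 (0.02) and highest at pbx3a (0.83) and pbx1b (0.67). The H3K27me3 pileup at meis2a was 38.6, 33.2 and 33.7 tags and at meis1b 27.995, 24.4 and 22.6 tags, below the control after injury at both.

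Among 20 genes that act upstream of HOX genes in the embryo, such as those for retinoic acid synthesis, breakdown and receptors, 2-fold changes were more varied. cyp26c1, which encodes a retinoic acid-degrading enzyme, had H3K4me3 of 21.7 tags in control, 7.19 at 9 hpi and 4.29 at 18 hpi, lower by 2-fold or more at both times. In H3K27Ac 3 of the 6 genes with a region were higher at 9 hpi (13% of all regions), and at 18 hpi 1 was higher (7.9%) and 1 lower (18.2%). The lowest log2 changes at 9 hpi were at raraa (−0.62) and aldh1a2 (−0.11). In H3K4me3 1 of 11 was lower at 9 hpi (4.1% of all regions), and at 18 hpi 1 was higher (4.8%) and 2 were lower (4.02%). The second lowest there at 9 hpi was cyp26b1 (23.1, 13.3 and 10.6 tags), and the highest were gdf11 (5.19, 10.2 and 8.38) and rarab (7.31, 13.3 and 19.96), a retinoic acid receptor gene. H3K27me3 changed 2-fold at none of 8, beside at most 0.999% of all regions in either direction. Its log2 changes at 9 hpi ran from −0.41 at gdf11 and −0.15 at cyp26b1 to 0.06 at hnf1bb and 0.23 at cyp26a1. The median log2 changes at 9 and 18 hpi were −0.005 and −0.003 in H3K27me3, 0.04 and −0.05 in H3K4me3 and 0.83 and 0.19 in H3K27Ac. Over all regions the medians were −0.025 and −0.041 in H3K27me3, −0.051 and −0.023 in H3K4me3 and 0.11 and −0.21 in H3K27Ac.

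None of the 31 Trithorax and Polycomb genes, which write, read or remove the marks at HOX clusters, was called in any mark at either time, with regions at 10 genes for H3K27me3, 27 for H3K4me3 and 23 for H3K27Ac. Over all regions, 13% were higher and 14.4% lower in H3K27Ac at 9 hpi, 7.9% and 18.2% at 18 hpi, and at most 4.8% in either direction in the other marks. Median log2 changes over all regions at 9 and 18 hpi were −0.025 and −0.041 in H3K27me3 and −0.051 and −0.023 in H3K4me3. In H3K27Ac they were 0.11 and −0.21. The Trithorax and Polycomb medians were −0.02 and 0.03 in H3K27me3, −0.06 and −0.17 in H3K4me3 and 0.60 and 0.06 in H3K27Ac. In H3K27Ac the log2 changes at 9 hpi were highest at eed (0.91) and suz12a (0.87), core subunits of the H3K27 methylating complex, and lowest at kdm6ba (−0.49), an H3K27 demethylase gene, and phc2b (−0.10). In H3K4me3 they ran from −0.42 at phc2b and −0.39 at phc2a to 0.12 at men1 and 0.09 at kmt2a, the latter 2 parts of a complex that methylates H3K4. In H3K27me3 they ran from −0.41 at jarid2b and −0.25 at phc1 to 0.89 at phc2b and 0.29 at rnf2. A last list held microRNAs and genes taken as cluster flanks, though not all of them lie beside a HOX cluster. snx10a (chr19:18664201-18664800) lies far from the hoxaa domain, and calcoco2 (chr12:20518001-20522000) far from the hoxbb domain. At 9 hpi the list gave 4 calls higher and 0 lower among 24 H3K27Ac regions near 29 genes (13% and 14.4% of all regions). It gave 0 calls among 26 H3K4me3 regions (3.28% higher and 4.1% lower over all regions). Among 16 H3K27me3 regions it also gave 0 (0.811% and 0.171%). Of the 4, skap2 and mir10c are the HOX regions already described, and snx10a and snx10b are the others. At 18 hpi H3K27Ac was higher at 1 and lower at 1, calcoco2 (7.9% and 18.2%). H3K4me3 was higher at 2 and lower at 1 (4.8% and 4.02%), the last being the hoxc4a region next to the mir10b-2 start.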

How the data were processed

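The tables used hold, per the file headers, merged regions and single-library intervals with the average and maximum tag pileup, a signal that the authors deposited with 0 and 1 columns for the presence of a call in each library. The submitters' processing notes name danRer10, SICER 12.1, MACS2 2.1.0 and BWA; the tools' roles and the normalization of the pileup are not given in the sources used here. The labels' protocols give fragments of 300 to 500 bp. The input library was not analysed here. 0 columns matched no sample.

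Regions were selected by gene symbol, and log2((average pileup + 1)/(control + 1)) was computed with Python 3.11.15, pandas 2.3.3 and numpy 2.4.6, with a 2-fold rule and without tests, since each mark and time has 1 library. Lengths and borders follow the 200 bp grid of the files, and overlap means 1 bp or more. Gene starts were solved from the deposited distances to genes. Depth is unknown, so no interval is given. HOX members, lists and marker genes were chosen with earlier results of these data known; from the cofactor, upstream and Trithorax and Polycomb lists the 2 highest and 2 lowest genes at 9 hpi per mark are named, with those 2-fold changed at both times, except that the highest H3K27Ac genes of the upstream list are not reported here. Alternatives were a pseudocount of 5, centring, maximum pileup, a signal filter, a 5000 bp limit and a 1.5-fold rule. No sequence is shown.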

Additional observations from a re-analysis of the deposited data

How the results depend on the processing

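Values were counted as kept when counts and lengths stayed within 1.5 times and log2 values within 0.1. Of 132 alternatives of the counts, lengths and medians, 98 kept the value and 34 moved it, and of 156 alternatives of single regions 93 kept it and 63 moved it. No value past 2-fold changed sign, but smaller ones did: 7 of 48 medians, 3 of them with maximum pileup and 4 with another region per list gene, and 21 of 156 single-region values, 20 of them with maximum pileup and 1 with centring. With maximum in place of average pileup, the median log2 change of HOX H3K27me3 became 0.24 at 9 hpi and 0.12 at 18 hpi, that of H3K4me3 −0.11 and 0.57, and that of H3K27Ac 1.32 and 0.49. H3K4me3 then had 0 regions higher and 2 lower at 9 hpi, and H3K27Ac 1 higher at 18 hpi. With a pseudocount of 5, H3K4me3 had 0 higher at 9 hpi and 0 higher and 0 lower at 18 hpi, and H3K27Ac 1 higher at 9 hpi with a median of 0.95. With the 3 H3K4me3 regions at or above the 25th percentile, 0 were higher at 9 hpi and 0 higher and 0 lower at 18 hpi. With the 9 H3K4me3 regions within 5000 bp of a HOX start, 0 were higher at 9 hpi and 1 at 18 hpi, with a median of 0.25 at 18 hpi; the 1 such H3K27Ac region, at hoxb4a, was higher at 9 hpi. With centring, H3K4me3 had 3 regions higher at 18 hpi, the one near hoxa5a being added, and H3K27Ac had 1 higher at 9 hpi (median 0.93) and 1 at 18 hpi (median 0.50). With a 1.5-fold rule, 2 H3K4me3 regions were lower at 9 hpi and 5 higher at 18 hpi, and 1 H3K27Ac region was higher at 18 hpi. Taking for each list gene the region of highest signal moved the cofactor H3K27me3 median at 9 hpi to 0.13, the upstream H3K4me3 medians to −0.073 and −0.24 and H3K27Ac medians to 0.54 and −0.069, and the Trithorax and Polycomb H3K27Ac median at 18 hpi to −0.0699. Beyond the smaller number of regions under the filters, the cause was not tested. No paired analysis was possible because each mark and time has 1 library, and leaving out a replicate was not possible for the same reason. The unknown depth limits the reading of all 3 marks, the weak H3K4me3 regions included.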

Other observations

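An eighth HOX locus of zebrafish has lost its HOX genes and keeps mir10d. Its H3K27me3 region on chromosome 6 (chr6:10627801-10633400, 5.6 kb), named with lnpb and mir10d, held the mir10d start and named no HOX gene and so belonged to none of the regions above. Its average pileup was 55.97 tags in control, 44.96 at 9 hpi and 45.2 at 18 hpi, rank 18 among all 18120 regions by mean pileup. The average lay in the range of the HOX domains, but over a shorter stretch, as the shortest HOX domain had 19.2 kb. The mir10d region's values after injury were below the control, as in the hoxd4a domain. Unlike that domain, it also carried active marks, likewise below the control after injury. An H3K4me3 region inside it had 9.65, 7.61 and 4.92 tags. The lnpb regions overlapping its edge had 37.1, 33 and 33.5 tags of H3K4me3 and 21.4, 14.9 and 13.2 of H3K27Ac.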
